A study of Rattus norvegicus with 8 samples.

Results

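The genes described here set the pace of the cell cycle at its first gap phase, and they comprise the D-type cyclins Ccnd1, Ccnd2 and Ccnd3, the kinase Cdk4 that they activate, the CDK inhibitors Cdkn1a (p21) and Cdkn1b (p27), and the growth arrest genes Gadd45a and Gadd45b. They were chosen by name, as all probe sets whose platform annotation gave exactly 1 of these symbols, which found all 8 genes with 12 probe sets among 14217 genes with 20826 probe sets. RNA came from rat ovarian granulosa cells, the somatic cells around the oocyte, and each of 8 samples was hybridised to 1 one-colour Affymetrix whole-genome array. Per the series' design text, immature rats were given eCG, a gonadotropin that makes follicles grow, and 24 h later either anti-eCG antibody, which sends follicles into atresia (their degeneration), or pre-immune serum as the control. In the serum group 30 to 50% of oocytes developed to term and in the antibody group 0% did, and both groups had received eCG. The labels of the arrays differ only in a number and place no array in either group, so no comparison of the treatments was made and no cell cycle gene is described here as higher or lower in atresia. Strain, exact age and any pooling of animals are not given in the sources used here. Arrays are named by label number, and every series of values runs in the order 2074, 2076, 2194, 2195, 2196, 2197, 2198 and 2199. Nothing in the labels says that the samples came from separate animals, so spread over arrays may be in part technical.

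D-type cyclins bind CDK4 or CDK6, and the active kinase phosphorylates the retinoblastoma protein, which releases E2F factors and lets a cell enter S phase. Cyclin D2 is the D-type cyclin known for granulosa cell proliferation, since mice without it have small follicles whose granulosa cells do not divide in response to FSH. CDKN1A and CDKN1B bind and restrain cyclin-CDK complexes and mark the exit from the cycle that accompanies luteinization, and GADD45A is known for its induction by DNA damage. GADD45B is a stress-induced relative that acts on stress kinases and is induced by TGF-beta and NF-kappaB signals.

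Promoter letters are shown for Cdk4 and Cdkn1b, the kinase and the inhibitor whose highest signals lay on different arrays. Each run is the 250 bases before the start of the gene, 5′ to 3′ on the gene's own strand, from RefSeq on the GRCr8 build, and capitals mark matches to the motifs searched.
Cdk4, chr7:64771203-64771452, + strand: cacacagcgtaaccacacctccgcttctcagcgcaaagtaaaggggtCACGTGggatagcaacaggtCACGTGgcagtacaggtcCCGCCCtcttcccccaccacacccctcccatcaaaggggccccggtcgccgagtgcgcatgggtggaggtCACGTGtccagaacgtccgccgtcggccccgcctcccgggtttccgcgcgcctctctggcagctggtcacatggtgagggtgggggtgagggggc
Cdkn1b, chr4:169491254-169491503, + strand: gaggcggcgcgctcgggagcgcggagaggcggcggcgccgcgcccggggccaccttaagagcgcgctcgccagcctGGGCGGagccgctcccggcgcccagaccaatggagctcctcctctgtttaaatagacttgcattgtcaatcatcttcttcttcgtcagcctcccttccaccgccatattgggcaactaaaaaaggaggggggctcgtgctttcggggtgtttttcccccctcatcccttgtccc
The motifs, searched on both strands, were the E-box CACGTG (bound by MYC and USF factors), the GC box GGGCGG (bound by SP1), the cAMP response element TGACGTCA, the forkhead motif TGTTTAC and the TATA box TATAAA, and no matches overlapped in the windows of these genes. The Cdk4 window held 3 E-boxes, starting 203, 183 and 95 bases before the start, and 1 GC box. An E-box was present in 5.59% of 33469 windows of the same length, and 3 or more were present in 0.0508%. The Cdkn1b window held 1 GC box, a motif in 30.5% of windows. RefSeq windows were also matched for Ccnd3, Cdkn1a, Gadd45a and Gadd45b, which makes 6 of the 8 genes. Of those, Gadd45a held 1 GC box, Gadd45b 1 E-box and 3 GC boxes, and Ccnd3 2 GC boxes. The TATA box was found in 12.9%, the forkhead motif in 3.21% and the cAMP response element in 1.59% of all windows, and 0 of the 6 windows held the cAMP response element, the forkhead motif or the TATA box. These are matches of letters and no binding was measured.

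Signals given below are on the linear scale after each array was scaled to a common median of bright probe sets. Spread was summarised by an inner range, in which the top and the bottom array are dropped and the highest remaining value is divided by the lowest. Values under an array's floor, its 40th percentile, were raised to the floor before ranges were taken. A probe set was called measured when it lay above its array's median on at least 2 arrays. By this rule 9 of the 12 probe sets and 7 of the 8 genes were measured, and Ccnd1 was not. Where a gene had more than 1 measured probe set, the brightest stood for it. Signals of different probe sets are not compared, since a probe set's brightness also depends on its probes.

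The cell type on the label was checked with markers. All 9 granulosa markers with a probe set were measured, and their summed signal lay between 386678 and 523897. The largest parts of this sum were Gja1 (118263 to 234436) and Fst (82872 to 180990). Single markers varied more, since Cyp19a1 ran from 991 on array 2076 to 20657 on array 2198, and Amh was under the floor on 1 array. The theca markers Cyp17a1 and Insl3 were at the floor on 5 and 3 arrays and Gli1 was not measured, while Hsd3b1, a steroid synthesis enzyme also made outside theca, was above the floor on all 8 arrays (186440 to 402766) and made up nearly all of the summed theca signal of 187658 to 404256. Among macrophage and leucocyte markers 4 of 7 were measured, among endothelial markers 2 of 4 and among stromal and smooth muscle markers 6 of 7, with Ptprc, Adgre1, Cd3e, Kdr, Vwf and Pdgfra not measured. In the oocyte list 2 of 4 were measured. Of the measured markers in these lists, Pecam1 and Dcn were at the floor on 4 arrays and Tek and Zp2 on 3. Lum and Myh11 were there on 2 arrays, and Col1a1, Csf1r, Cd68 and Gdf9 on 1. The erythroid sum, mostly Hbb, reached 49119 on array 2074, followed by 13278 on array 2076 and at most 10382 on the other 6. The summed signal of the macrophage and leucocyte markers ran from 5225 on array 2197 to 8320 on array 2196. Of these Csf1r was lowest on arrays 2074 (180) and 2076 (528), with 875 to 1899.7 elsewhere. The rest of the list did not share this: Lyz2 was highest on array 2074 (5485) and was 2543 on array 2076. On the same arrays Cd68 gave 505 and 797, with its lowest value on array 2195 (190). Cd14 gave 1497 and 1074, with its lowest value on array 2196 (929). Arrays resembled each other with Spearman correlations of 0.79 to 0.92 over measured probe sets. Array 2195 had the lowest median correlation with the others, 0.81 against 0.85 to 0.88, and the highest floor, 473 against 274 to 385. Arrays 2074 and 2076 together lay above the other 6 in 13.6% and below them in 14.5% of 10513 measured genes.

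Cyclin D2 was measured on every array and differed between arrays. Ccnd2 (probe set 1370810_at) gave 28763, 11247, 11122, 16116.5, 8153, 8815.5, 16949.5 and 7839.6. Array 2074 was highest, 1.70-fold above the next array, followed by 2198 and 2195, and arrays 2199, 2196 and 2197 were lowest. The inner range was 2.08-fold and the full range 3.67-fold, and 27.5% of all measured probe sets had an inner range at least as wide. On each array Ccnd2 lay between the 94.1st and the 98.95th percentile of all probe sets. The array with the highest Ccnd2 signal was also the one with the highest erythroid sum, and the part of this in the value was not tested. Without array 2074 the inner range was 1.98-fold.

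Cyclin D3, which serves the same kinases, hardly varied. Ccnd3 (1369935_at) gave 1671, 2079, 1995, 1976.5, 1749.6, 2057, 1801 and 1926. Every array was within 1.24-fold of every other. Its inner range of 1.18-fold was among the narrowest on the array, since 98.6% of measured probe sets were at least as wide.

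Cyclin D1 gave no usable level with any of its 3 probe sets. The probe set 1371150_at ran from 26.6 on array 2194 to 509 on array 2198, 1371643_at from 21.7 on array 2197 to 360 on array 2076, and 1383075_at from 5.75 on array 2076 to 366 on array 2194. Each lay under the floor on 7 of the 8 arrays and above the array's median on 0, and each was highest on a different array. The order of Ccnd1 over arrays was therefore not read, and low signal does not show that its transcript was absent.

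Cdk4, the kinase partner of the D-type cyclins, was highest on the same pair of arrays as Cdkn1a. Cdk4 (1369950_at) gave 10435, 16258, 8842, 6188, 8252, 6138, 7309 and 6430.1. Arrays 2074 and 2076 lay above all other arrays, whose values ran from 6138 to 8842. The same arrays had the highest erythroid sums, 49119 and 13278 against 3814 to 10382. They also had the lowest Csf1r signals. The summed macrophage and leucocyte markers were not lowest there, at 8132 and 5628 against 5225 to 8320. The part of other cells in the Cdk4 and Cdkn1a values was not tested. The inner range was 1.69-fold, with 55.2% of measured probe sets at least as wide, and the full range was 2.65-fold. Over arrays 2194 to 2199 alone the inner range was 1.33-fold.

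**Figure D1:**
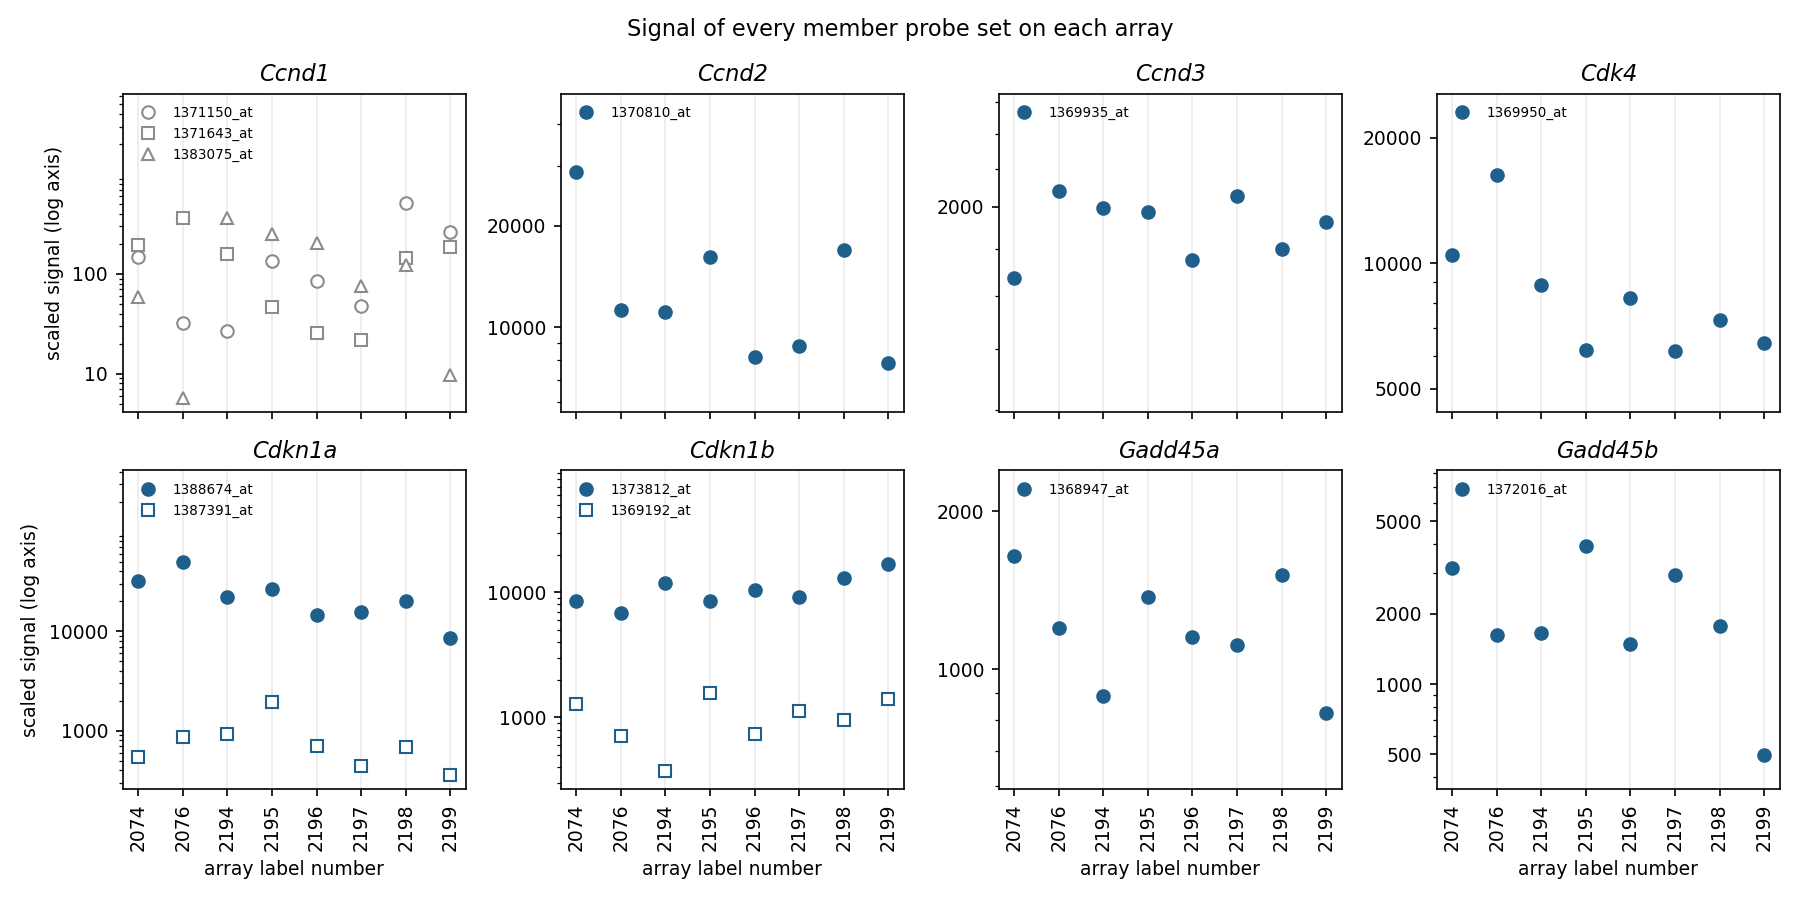
Scaled signal (log axis, its own scale in each panel) of the 12 probe sets on each of the 8 arrays, named by label number. Filled points are the probe set that stood for a gene, open blue points a second measured probe set and grey points the 3 Ccnd1 probe sets that were not measured. Ccnd3 stays between 1671 and 2079, while Gadd45b falls to 496 on array 2199.

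The CDK inhibitor Cdkn1a had the widest inner range of the members. Its brightest probe set (1388674_at) gave 31771, 48954, 21798, 26250.1, 14539, 15581.5, 20052 and 8453. Arrays 2074 and 2076 lay above the other 6, and array 2199 lay 1.72-fold below the next lowest array. The inner range was 2.19-fold (22.3% of measured probe sets at least as wide). The full range of 5.79-fold was matched or exceeded by 3.14% of measured probe sets. Over arrays 2194 to 2199 alone the log2 inner range was 0.58, against 1.13 over all 8.

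The dimmer probe set of Cdkn1a (1387391_at) gave 544, 864, 922, 1959, 707, 441, 683 and 360. It shared the lowest array, 2199, but was highest on array 2195, where the floor was also highest. Its inner range was 2.09-fold. Over all 8 arrays both probe sets correlated with a Pearson r of 0.54 and a Spearman rho of 0.55, given as a description of probe sets of the same gene. The position of arrays 2074 and 2076 above the rest was thus seen with the brighter probe set only.

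Cdkn1b, the other CDK inhibitor, ran the opposite way to Cdkn1a with its brightest probe set. That probe set (1373812_at) gave 8468, 6898, 11803, 8459, 10425, 9224, 12962 and 16966. Array 2076, highest for Cdkn1a, was lowest for Cdkn1b, and array 2199, lowest for Cdkn1a, was highest for Cdkn1b. The inner range was 1.53-fold (71.3% of measured probe sets at least as wide) and the full range 2.46-fold. The dimmer probe set (1369192_at) gave 1290.3, 717, 373, 1557, 735, 1127, 954 and 1404, with its lowest value on array 2194, 1.92-fold below the next. It did not follow the brighter one (Pearson r = 0.0017, Spearman rho = -0.02 over 8 arrays), so the pattern of Cdkn1b depended on the probe set.

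Of the growth arrest genes, Gadd45a had an inner range close to the median of all measured genes and Gadd45b a wider one. Gadd45a (1368947_at) gave 1646, 1196, 889, 1372, 1153, 1114, 1510.3 and 827, highest on array 2074 and lowest on array 2199. Its inner range was 1.70-fold (53.9% of measured probe sets at least as wide). Its full range was 1.99-fold.

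Gadd45b (1372016_at) gave 3154, 1630.1, 1660.1, 3912.5, 1489, 2923.5, 1767.5 and 496. Arrays 2195, 2074 and 2197 were high, 4 arrays lay between 1489 and 1767.5, and array 2199 lay far below the next lowest, 496 against 1489. The inner range was 2.12-fold. The full range of 7.885-fold was the largest of the members, and 0.996% of measured probe sets had a full range at least as large. This width came from array 2199 at the low end.

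Taking the 7 measured genes by their brightest probe set, 3 reached 2-fold in inner range, namely Ccnd2, Cdkn1a and Gadd45b, which compares with 29.8% of all measured genes. By probe set the count was 4 of 9, against 31.7% of all measured probe sets. The median inner range of the 7 genes was 1.70-fold and that of all 10513 measured genes 1.71-fold. By these medians the 7 genes varied about as much as other genes. By probe set the median was 1.96-fold for the 9 of the members and 1.745-fold for all measured ones. All 7 genes lay above the array's median on all 8 arrays, and of the 6758 such genes 19.33% reached 2-fold. The 3 calls lay close to the threshold: without array 2074 the count was 0 of 7 (18.85% of all genes), without array 2196 it was 1 of 7 (25.1%), without array 2199 it was 1 of 7 (23.95%), and over arrays 2194 to 2199 it was 0 of 7 (11.99%). By probe set the count was 1 of 9 without array 2074 (20.64% of all probe sets) and 1 of 9 without array 2199 (25.4%). It was 2 of 9 without array 2195 (23.35%) or array 2196 (26.83%), and 1 of 9 over arrays 2194 to 2199 (13.04%).

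**Figure D2:**
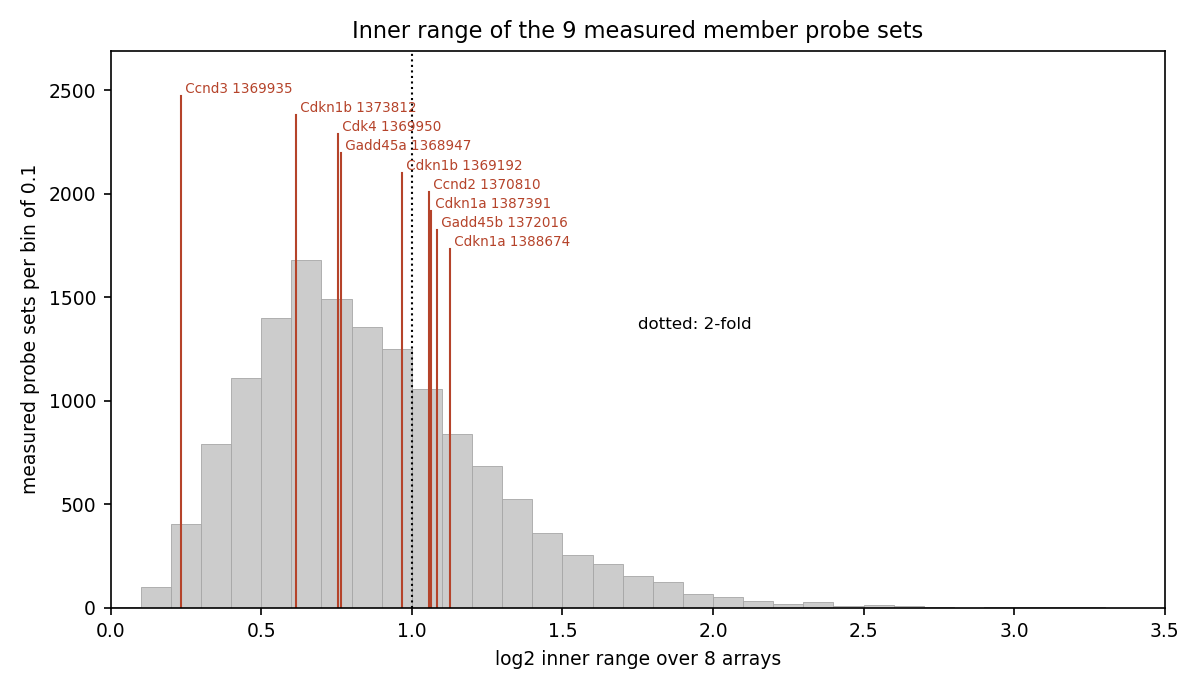
Grey bars count all measured probe sets by log2 inner range over the 8 arrays, in bins of 0.1, and red lines mark the 9 measured member probe sets. The members spread from 0.23 for Ccnd3 to 1.13 for Cdkn1a, and 4 of them lie just right of the dotted line at 2-fold.

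Array 2199 stood out among the members. It was the lowest of the 8 arrays for Ccnd2, Cdkn1a, Gadd45a and Gadd45b, which is 4 of 7 genes, whereas it was lowest for 12.4% of all measured genes. Across arrays this share of all genes ran from 7.70% on array 2194 to 19.1% on array 2197. The gap to the next array was wide for Gadd45b (496 against 1489) and Cdkn1a (1.72-fold), but 1.08-fold for Gadd45a and 1.04-fold for Ccnd2. After quantile normalization array 2196 was the lowest for Ccnd2 and the count was 3 of 7. Of the 7 genes 2, Cdk4 and Cdkn1a, had arrays 2074 and 2076 both above the other 6, set beside 13.6% of all genes, and 0 had both below. The counts for these arrays were chosen after the values had been seen.

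**Figure D3:**
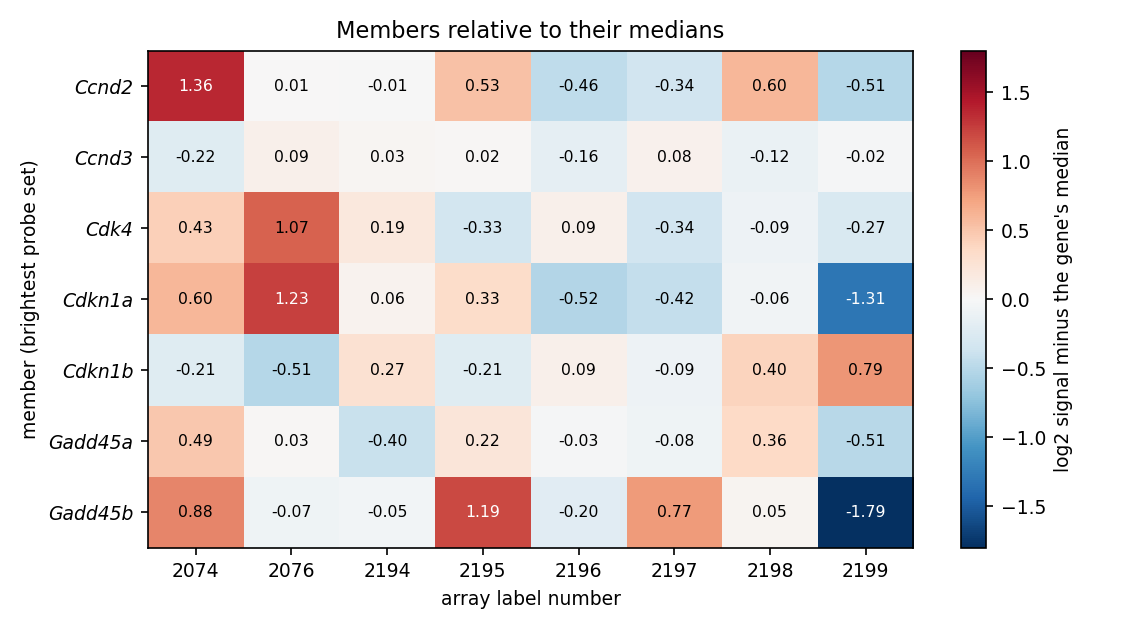
Log2 signal of the 7 measured genes (brightest probe set each) minus the gene's own median over arrays, by array label number, in red above and blue below the median. Array 2199 is blue for Gadd45b (-1.79) and Cdkn1a (-1.31) and red for Cdkn1b (0.79), and array 2074 is red for Ccnd2 (1.36).

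Relations over arrays were computed for 29 pairs, all 21 pairs of the measured members and 8 pairs with a pathway gene. Of the member pairs 12 had a positive and 9 a negative Pearson r. After Benjamini-Hochberg adjustment over the 29 pairs 0 passed 0.05 by exact two-sided permutation, and the lowest adjusted p was 0.154 for Pearson and 0.132 for Spearman correlation. Before adjustment 7 pairs had p under 0.05 by Pearson and 5 by Spearman correlation. The relations below are therefore reported as ones that failed the correction. The permutation takes all arrays as interchangeable. The labels do not show which arrays shared a treatment, so this could not be checked, and the p-values are descriptive.

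Cdkn1a and Cdkn1b had the Pearson correlation farthest from 0 of the 29 pairs, with a Pearson r of -0.84 (exact permutation p = 0.00935, adjusted 0.154) and a Spearman rho of -0.79 (p = 0.0279, adjusted 0.266, exact permutation). Without arrays 2076 and 2199, the farthest from the median of Cdkn1a, r was -0.39, so the size of r depended on those arrays. Leaving out the arrays farthest from the median can by itself shrink r. With any 1 array left out r was -0.90 to -0.69. Over arrays 2194 to 2199 r was -0.69. With the dimmer probe sets r lay between -0.47 and -0.13.

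Ccnd2 and Gadd45a were high and low on much the same arrays, with r of 0.82 (exact permutation p = 0.0106, adjusted 0.154) and rho of 0.90 (p = 0.00456, adjusted 0.132, exact permutation). Without arrays 2074 and 2198 r was 0.59, and over arrays 2194 to 2199 it was 0.74. Both genes have 1 probe set, so no second probe set was there to compare.

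Cdk4 and Cdkn1a gave r of 0.75 (exact permutation p = 0.0324, adjusted 0.192) and rho of 0.60 (p = 0.132, adjusted 0.384, exact permutation). Without arrays 2074 and 2076, the farthest from the median of Cdk4, r was 0.19, so the size of r depended on those arrays. With any 1 array left out r was 0.50 to 0.89. With the dimmer Cdkn1a probe set r was 0.09.

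Cdkn1b and Gadd45b gave r of -0.73 (exact permutation p = 0.0371, adjusted 0.192) and rho of -0.50 (p = 0.216, adjusted 0.522, exact permutation). Without arrays 2076 and 2199 r was -0.85 and over arrays 2194 to 2199 it was -0.93, but with the dimmer Cdkn1b probe set it was 0.14. Gadd45a and Gadd45b gave r of 0.70 (exact permutation p = 0.0463, adjusted 0.192) and rho of 0.64 (p = 0.0962, adjusted 0.384, exact permutation), and r was 0.29 without arrays 2074 and 2199.

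**Figure D4:**
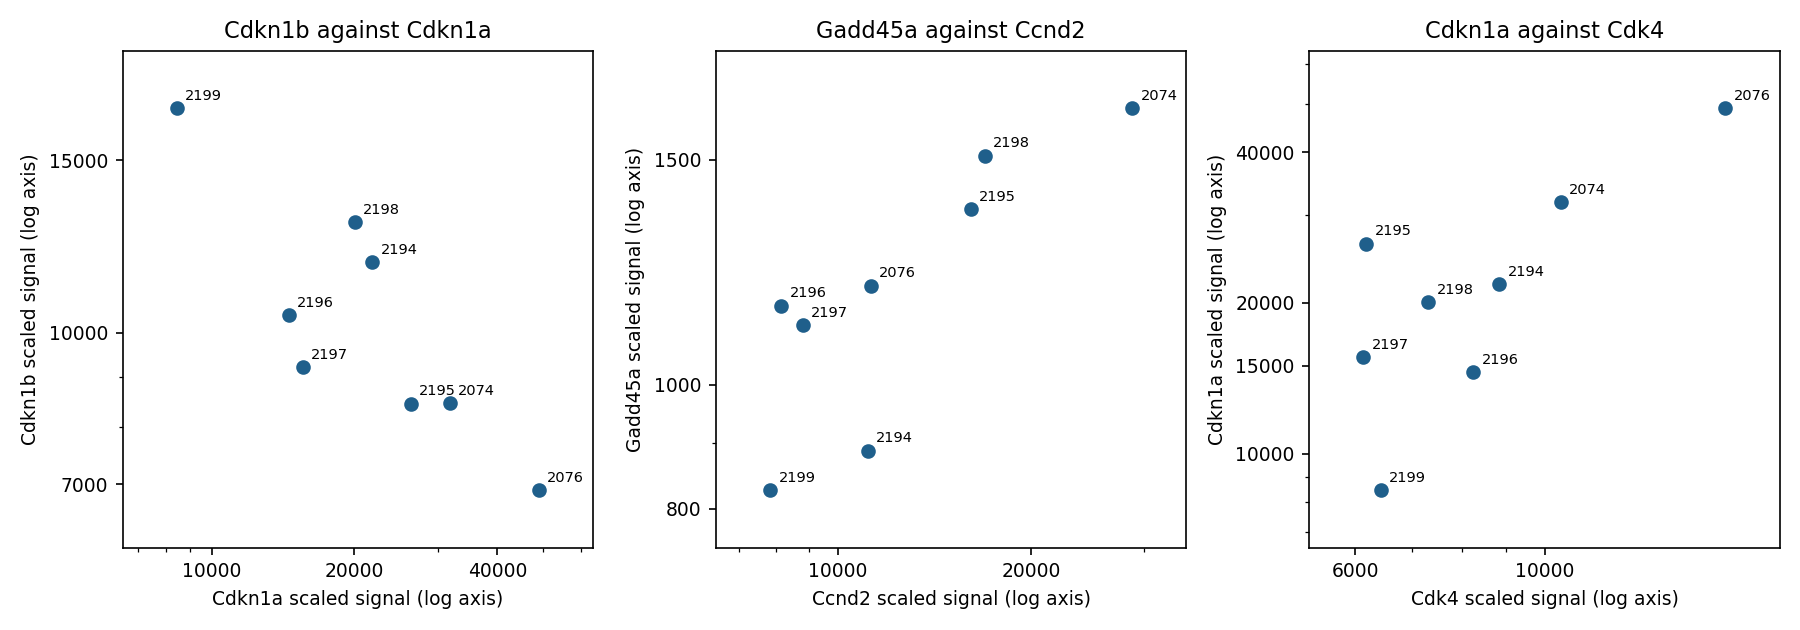
Scaled signals (both axes logarithmic) of 3 pairs of members over the 8 arrays, each point labelled with its array. Cdkn1b runs down from array 2199 to array 2076 as Cdkn1a runs up (r = -0.84), Gadd45a follows Ccnd2 (r = 0.82), and Cdkn1a against Cdk4 is spread by arrays 2074 and 2076.

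Among pathway genes, Foxo1 encodes a forkhead factor known to repress Ccnd2 when survival signals are low. Foxo1 gave 12370.4, 6339.9, 3171.5, 1939.9, 1967, 1464, 4038 and 1394. Array 2074 was highest and array 2199 lowest, as for Ccnd2, and r between them was 0.78 (exact permutation p = 0.021, adjusted 0.192) with rho of 0.76 (p = 0.0368, adjusted 0.266, exact permutation). Without arrays 2074 and 2198 r was 0.36, and over arrays 2194 to 2199 it was 0.68.

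Ccng1, the cyclin G1 gene, gave 7673, 7779.6, 10648, 8795, 10026, 10785, 10775.5 and 9982. Arrays 2074 and 2076 were lowest, where Cdkn1a was highest, and r was -0.71 (exact permutation p = 0.0449, adjusted 0.192) with rho of -0.60 (p = 0.132, adjusted 0.384, exact permutation). Without arrays 2076 and 2199 r was -0.79, and over arrays 2194 to 2199 it was -0.21.

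The other 6 pathway pairs had p of at least 0.105 by exact permutation of Pearson's r. Ccnd2 gave r of 0.16 with Cyp19a1, the aromatase, and 0.27 with Inhba, the inhibin beta A subunit. Foxo1 gave r of -0.47 with Cdkn1b and 0.62 with Gadd45a. Gadd45b gave r of -0.09 with Egr1 and 0.22 with Junb, both immediate-early factors. Pairs with Esr2 and Ccnd1 could not be formed, since neither was measured.

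Of 20 other genes of the G1 phase 15 were measured, and 3 of these reached 2-fold in inner range, beside 29.8% of all measured genes. The median of the list was 1.61-fold, beside 1.71-fold for all genes. The 3 genes were Gadd45g, the remaining GADD45 gene, at 3.22-fold or more, Cdk2, the kinase of cyclin E, at 2.57-fold and Ccne1, cyclin E1, at 2.22-fold or more. Both Gadd45g and Ccne1 fell under the floor on 2 arrays, which makes their ranges lower bounds. The low arrays of Gadd45g were 2194 (132) and 2198 (166), and its remaining values ran from 544 to 1403. Cdk2 was highest on array 2076 (2088) and next on array 2074 (1802), while its remaining values ran from 484 to 1099.6. This gives the same pair of high arrays as for Cdk4. In this list 2 of 15 measured genes had both arrays above the other 6, beside 13.6% of all measured genes. Cdkn2d, a CDK4 inhibitor, had the narrowest inner range of this list, 1.44-fold. Cdk6, Cdkn2a and Cdkn2b were not measured.

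Genes of DNA replication and mitosis reached 2-fold in 2 of 15 genes, beside 29.8% of all measured genes, the mitotic kinases Aurka (2.36-fold) and Plk1 (2.33-fold), with a list median of 1.55-fold beside 1.71-fold for all genes. Mki67, the proliferation marker, had an inner range of 1.90-fold, and its lowest and highest arrays were 2074 (1843.5) and 2195 (3832). Pcna, the replication clamp, had 1.08-fold. Among regulators of these genes in granulosa cells, 4 of 9 measured reached 2-fold, again beside 29.8%, namely Foxo1 (4.33-fold), Cyp19a1 (log2 inner range 2.07), Inhba (2.72-fold) and Igf1 (2.22-fold). Smad3, which carries activin signals, had 1.11-fold, but its end arrays, dropped from this range, were 2198 (1904) and 2074 (4563).

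**Figure D5:**
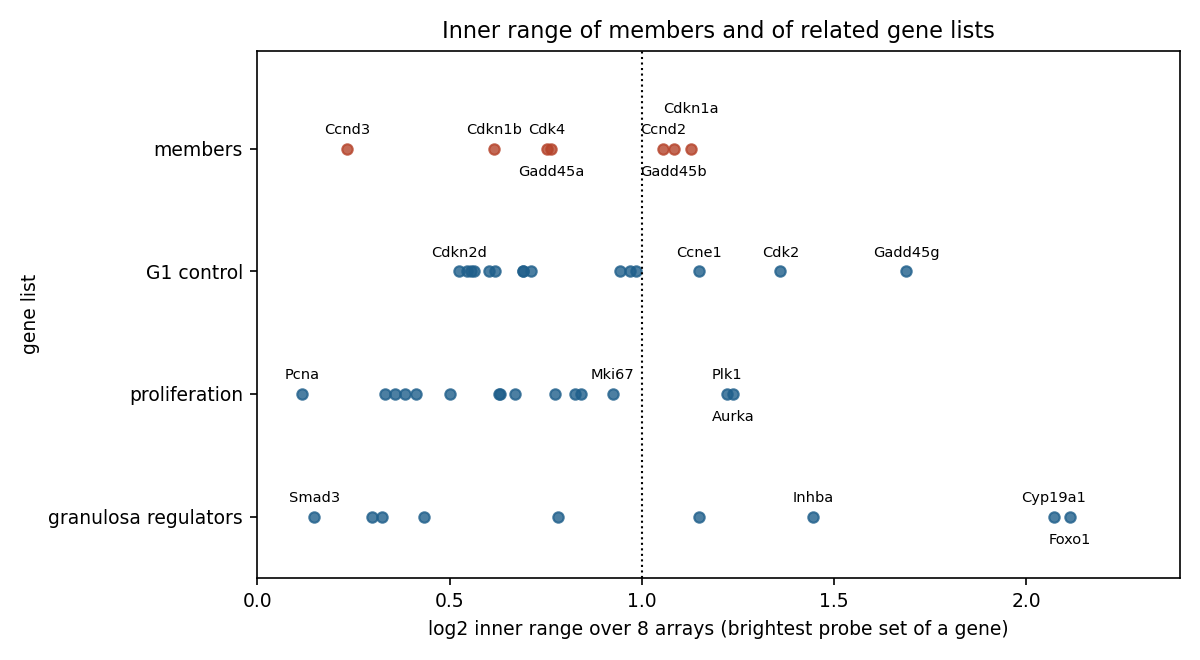
Log2 inner range over the 8 arrays of each measured gene (brightest probe set) in the members and 3 related lists, with the members and the widest and narrowest genes of each list labelled and 2-fold as a dotted line. The members reach 1.13, while Foxo1 and Cyp19a1 lie above 2.

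For each member measured on all 8 arrays with an inner range of at least 1.5-fold, the 3 genes with the most similar pattern were found by Pearson r of log2 signal over the 8 arrays among 7546 other genes. Being the highest of so many, these values are a description and carry no p. Ccnd2 was most like Lrp6 (r = 0.96), a Wnt co-receptor, Gstt2 (0.94) and Golga5 (0.94). Cdk4 was most like Spns1 (0.97), Cenpb (0.96) and Cyb5b (0.95).

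Cdkn1a was most like Vat1 (0.98), Lbh (0.97) and Hmga1 (0.96). On array 2199 Vat1 was under the floor (108 against 314.5). Hmga1, a chromatin protein, gave 4715, 9607, 2507, 2854, 2042, 1164, 2053 and 811, highest on array 2076 and lowest on array 2199 as Cdkn1a was. Cdkn1b was most like Eya1 (0.95), Pabir2 (0.94) and Bbc3 (0.94), the death gene PUMA. Bbc3 gave 748, 577, 1055, 789, 1047, 620, 1181 and 1472, lowest on array 2076 and highest on array 2199. These matches used the brightest probe set of each inhibitor. The dimmer one correlated with it at r of 0.54 for Cdkn1a and 0.0017 for Cdkn1b.

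Gadd45a was most like Rnase4 (0.94), Reep6 (0.92) and Hgd (0.92), of which Reep6 and Hgd were above the array's median on 2 arrays only. Gadd45b was most like Zfp341 (0.98), Vsir (0.97) and Smtnl2 (0.97), and Smtnl2 was above the median on 3 arrays. Over arrays 2194 to 2199 alone r was between 0.76 and 0.98 for these 18 genes. The genes had been picked for their high r over a set of arrays that includes these. The range is therefore a description and cannot serve as a separate check.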

How the data were processed

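The deposited values are linear signal intensities. MAS5 is the tool that the submitters' processing notes name, with no version. Total RNA was extracted with the RNeasy kit and labelled with biotin, per the labels' protocols. The deposited table held 31099 probe sets, 57 of them controls, which were left out, and the mean after trimming 2% at each end was 1500.5 to 1500.6 on every array. MAS5 is noisy at low signal and no detection calls were used. Arrays were scaled on the log2 scale to a common median of the probe sets above the median on all 8 arrays (factors 0.963 to 1.06). Platform symbols, which can be old, were checked by gene identifier against the GRCr8 gene table, which held 20758 of 20826 and changed 0. Since all 8 arrays were unassigned, no means or errors were formed. The number of arrays limits the precision.

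Named genes are all members, the 3 widest and 1 narrowest of each related list, and the 3 most similar genes per member. Ccng1, Egr1 and Junb come from pairs listed for the correlations, and Igf1 was named after its values were seen, to complete a count. Of the related lists and motifs, 1 of each is not reported here. Members and lists were chosen with earlier results of these data known. Correlations were tested by enumerating all 40320 pairings (Python 3.11.15, SciPy 1.17.1, NumPy 2.4.6, pandas 2.3.3). The inner range was tested on simulated data. Alternatives were other scaling, floors, filters, the full range, the mean of probe sets and left-out arrays.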

Additional observations from a re-analysis of the deposited data

Results flagged for a closer look

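Gadd45b on array 2199 lay far below the other 7 arrays: its gap to the next array was 0.532 of the whole log2 range over the 8 arrays (Dixon's ratio), with 496 against 1489 to 3912.5. The same array was lowest for both Cdkn1a probe sets. Of the 9 measured member probe sets this was the only 1 so marked, and chance marks about 1 in 20 sets of values. The cause was not tested.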

How the results depend on the processing

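No paired analysis was possible because the labels put no array in a group. Of the member probe sets 4 of 9 reached 2-fold in inner range, against 31.7% of all measured probe sets. The count was 7 of 9 with the full range (74.15% of all) and 1 of 9 over arrays 2194 to 2199 (13.04%). On leaving out any 1 array it was 1 to 3 (20.52 to 26.83%). By gene it was 3 of 7 (29.8% of all measured genes), 5 with the full range (71.37%) and 0 over arrays 2194 to 2199 (11.99%). The gene count was 0 to 3 on leaving out any 1 array (18.73 to 25.11%). The median log2 inner range of the measured member probe sets was 0.97, beside 0.80 for all measured probe sets. The member median was 1.88 with the full range, 0.63 over arrays 2194 to 2199 and 0.76 to 0.97 with 1 array left out. Leaving arrays out narrows an inner range by construction and the full range widens it. With no scaling 3 of 9 probe sets (31.04% of all) and 2 of 7 genes (29.32%) reached 2-fold. With quantile normalization 3 of 9 (29.08%) and 3 of 7 (27.68%) did. By probe set the count was 4 of 9 with a lower floor or none (43.71%). It was 3 of 7 with probe sets above the median on all 8 arrays (20.07%) and 4 of 12 without any filter (21.62%). With the mean of probe sets 3 of 7 genes reached 2-fold, and no share of all genes was formed. The 2 members with arrays 2074 and 2076 above the rest were 2 under each of the 6 alternatives run, and the 4 members lowest on array 2199 were 3 or 4. Of the 29 pairs, 0 passed adjustment under each of the 14 alternatives run. Settings that kept only 6 arrays allowed few pairings, so little could pass there. With a lower floor the share of all measured genes at 2-fold was 39.57%, while the member counts were the same. With genes above the median on all 8 arrays only, the share was 19.33%, beside 3 of 7 members. Without any filter it was 22.16%, beside 3 of 8 members. A value counted as moved when it changed by over 1.5 times. Signal near background limits Ccnd1, for which no spread could be read.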
